A study of Stropharia rugosoannulata with 3 samples.

Results

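The paper names 3 core genes of predicted indole clusters in *S. rugosoannulata*, SRUG_09987, SRUG_10137 and SRUG_11196. Each was examined with the 10 gene numbers before it and the 10 after it, which gave 3 stretches of 21 gene models. These 63 models, of 11750 in the assembly, run from SRUG_09977 to SRUG_09997 and from SRUG_10127 to SRUG_10147 on contig 12, and from SRUG_11186 to SRUG_11206 on contig 16. No stretch reached a contig end. SRUG_09987 had 114 models before it and 265 after it on its contig, SRUG_10137 had 264 and 115, and SRUG_11196 had 130 and 121. RNA-seq was carried out on mycelia of the cultivar “Heinong No. 1”, the strain given in the labels, while the sample titles name S68, a monokaryon derived from that cultivar. The mycelia were grown on potato dextrose agar (PDA) at 25 °C without a further treatment in the labels. There were 3 libraries, numbered 1 to 3, all of this single condition, so no differential test was possible. The labels do not say whether the libraries came from separate cultures, and the SDs below therefore measure the spread between libraries, which may be technical.

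A fungal indole cluster is usually predicted from a core gene for a prenyltransferase of the dimethylallyltryptophan synthase type, an enzyme that attaches a prenyl group to tryptophan or to another indole. In ergot fungi such an enzyme opens the route to the ergot alkaloids. Genes of a fungal secondary metabolite cluster commonly lie side by side, and many such clusters are quiet in routine culture. Which of the neighbouring models belong to the predicted clusters was not used here, and the functions of the neighbours were not analysed, so they are named by gene number alone.

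No core gene sat in a stretch that was silent throughout. Of the 60 neighbours, 53 were expressed at a mean FPKM (sequenced fragments corrected for gene length and library depth) of at least 1 (53 of the 63 members, or 84.1%, beside 83.3% of all gene models), and 5 had no count in any library. Over the 63 models, 6 had no count in any library, or 9.52%, beside 10.7% of all gene models. A further 4 had counts but a mean FPKM under 1, which made 10 low models (15.9%, beside 16.7% of all gene models). All 3 core genes were among these 10. By stretch, 4 of 21 models (19.0%) were silent around SRUG_09987 and 1 of 21 (4.76%) around each of the others. The silent share around SRUG_09987 was thus above that of all gene models, a difference that was not tested. Low models were 4 of 21 (19.0%) around SRUG_09987 and around SRUG_10137, and 2 of 21 (9.52%) around SRUG_11196. The stretches were chosen around these core genes, so the shares over 63 models include them by design. Among the 60 neighbours alone, 7 (11.7%) were low and 5 (8.33%) were silent. Both shares were below those of all gene models, a difference that was not tested. The median of the mean FPKM over the 60 neighbours was 29.7, beside 23.9 for all gene models. SRUG_10137 and SRUG_11196 were low alone, each with both adjacent models above an FPKM of 1. SRUG_09987 was silent together with one neighbour, SRUG_09986. Of the 1943 low models of the assembly with a neighbour on each side, 460 (23.7%) had both adjacent models at a mean FPKM of at least 1. In the stretches this held for 3 of the 10 low models, the third being SRUG_10135.

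**Figure D1:**
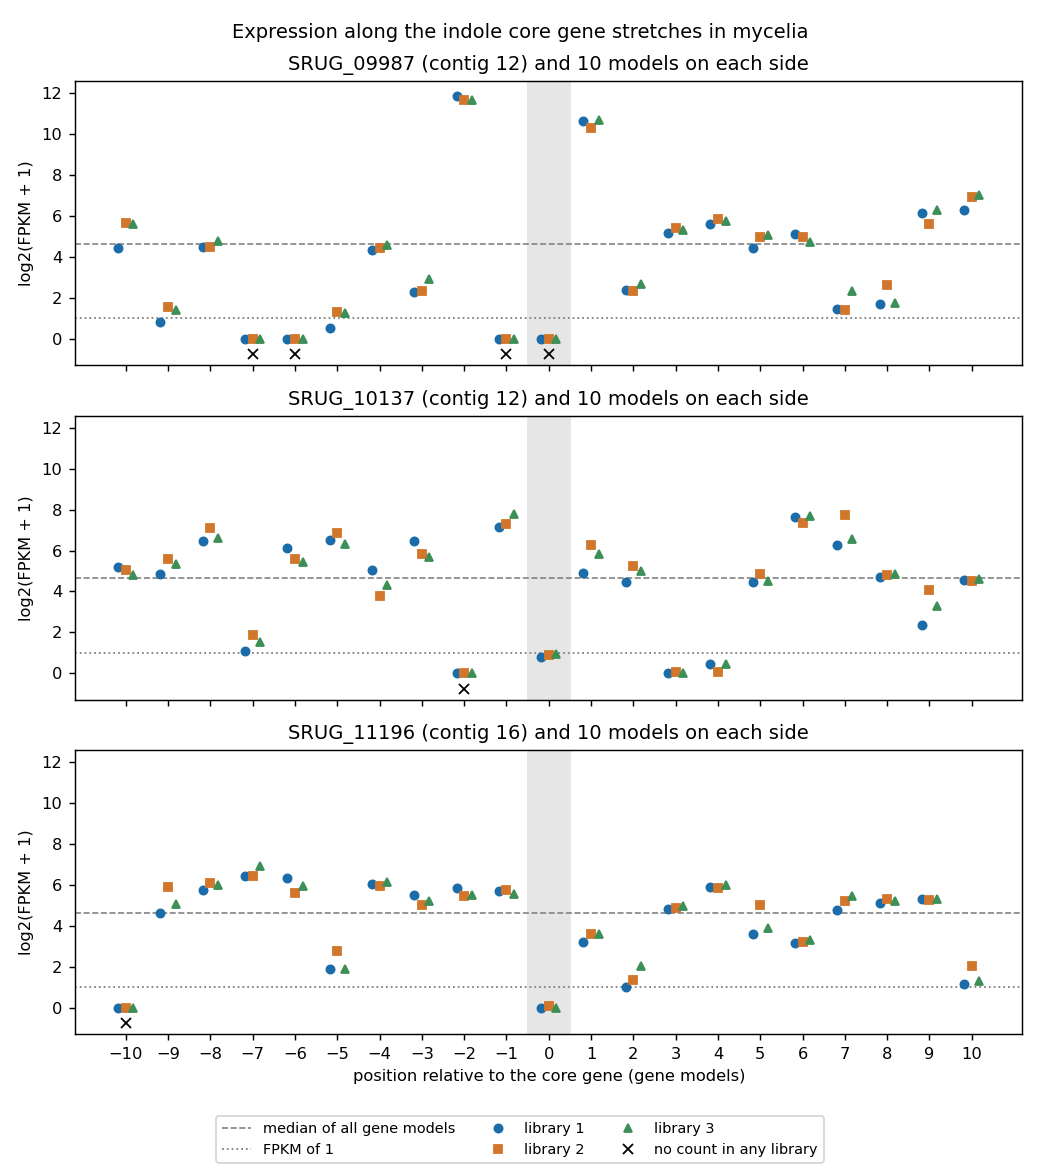
The level of each gene model, as log2(FPKM + 1), is plotted against its position relative to the core gene (grey band) for the 3 stretches, with a point for each library and a cross under models without a count in any library. The core genes SRUG_09987 and SRUG_11196 lie at or near 0, and SRUG_10137, with 0.737 to 0.918 FPKM, lies just under an FPKM of 1. SRUG_09985 and SRUG_09988, at positions -2 and 1 of the upper panel, are the highest models of all 3 stretches.

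Libraries 1, 2 and 3 had totals of 31831513, 30516180 and 29678333 counts. Among counts from 1 to 10, 67.7% were even, as when a fragment adds 2 counts. Up to 3 fragments, which would be 6 counts, can therefore be missed where the count is 0, a limit on counting error only. In CPM (counts scaled by library size) this limit was 0.188, 0.197 and 0.202 in libraries 1, 2 and 3. Since RNA was taken from whole mycelia, a low level in all hyphae and a higher level in a few of them cannot be told apart. How reads that match several genes were treated is not known from the sources at hand, and its part in the zero counts was not tested.

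SRUG_09987 is model 121 of contig 12. It had 0 counts in libraries 1, 2 and 3, so only the counting limit of 6 counts can be given for its level in each. The model just before it, SRUG_09986, also had 0 counts in the 3 libraries. This silent pair lay between some of the most abundant transcripts of the mycelium. SRUG_09985, next to the pair on one side, had 3751, 3229 and 3256 FPKM in libraries 1, 2 and 3, with a mean of 3412 ± 294 (SD, n = 3) and rank 16 of the 11750 gene models. SRUG_09988, adjacent to the core gene on the other side, had 1626, 1267 and 1635 FPKM, with a mean of 1509 ± 210 (SD, n = 3) and rank 48. Both were high in all 3 libraries, and they were the only members of the stretches at a mean FPKM of at least 1000, a level that 0.809% of all gene models reached. SRUG_09985 and SRUG_09988 together made up 91.1% to 93.8% of the FPKM summed over the 21 models in each library. These are short models by their counts per FPKM, at 0.230 and 0.348 of the median of all gene models. No FPKM limit can be given for SRUG_09987, because a model without a count gives no counts per FPKM.

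Away from the core, levels on the 2 sides of SRUG_09987 differed. The 10 models after it were all expressed. Of the 10 before it, 3 had no count in any library: SRUG_09986 and the adjacent pair SRUG_09980 and SRUG_09981. SRUG_09984, 3 models before the core, had 3.84, 3.96 and 6.49 FPKM in libraries 1, 2 and 3. Still on that side, SRUG_09982 had 0.453, 1.47 and 1.40 FPKM, and its mean of 1.11 fell to 0.926 without library 2 and to 0.961 without library 3. It was thus a low model in library 1 alone, beside the silent pair SRUG_09980 and SRUG_09981. SRUG_09978 was near the threshold too, with 0.778, 1.89 and 1.68 FPKM. On the other side, SRUG_09989 had 4.16, 4.01 and 5.32 FPKM and SRUG_09990 had 35.2, 42.3 and 38.7. The last model, SRUG_09997, was the third highest of the stretch with 77.7, 121 and 128 FPKM. The medians of the 5 models nearest to the core were 4.76 FPKM before it and 38.7 after it. The stretch had 4 silent models in all, 19.0% of its 21, beside 10.7% of all gene models. The 20 neighbours had a median of 22.0 FPKM, with 9 of them above the median over all models.

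SRUG_10137, model 275 of contig 12, was the one core gene detected in every library. It had 28, 31 and 33 counts and 0.737, 0.835 and 0.918 FPKM in libraries 1, 2 and 3, a mean of 0.830 ± 0.0906 (SD, n = 3). Its coefficient of variation was 10.9%. If 2 counts are taken as 1 fragment, its 46 fragments give a Poisson 95% interval for the mean of 0.608 to 1.11 FPKM. Counting error alone thus does not place it below 1. Its odd counts of 31 and 33 are not whole numbers of such fragments, so the intervals are approximate. The intervals of libraries 1, 2 and 3 were 0.40 to 1.22, 0.48 to 1.38 and 0.53 to 1.48 FPKM. Each held the values of all 3 libraries, so the small spread does not show a stable level. It was higher than 16.1% of all gene models. The adjacent models were far above it in every library. SRUG_10136 had 144, 156 and 220 FPKM in libraries 1, 2 and 3, which was 195, 187 and 239 times the FPKM of the core gene. SRUG_10138 had 28.8, 77.1 and 56.3 FPKM, or 39.0, 92.4 and 61.3 times that of the core gene. Neither neighbour overlapped it in any library, and the differences exceeded the SDs (40.8 and 24.2 FPKM).

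Of the other 20 models around SRUG_10137, 3 were low, beside 16.7% of all gene models. These 3 all lay within 4 positions of the core. SRUG_10135, before the core, had 0 counts in every library, with SRUG_10134 (88.8, 55.7 and 49.997 FPKM) and SRUG_10136 on its sides. After the core, SRUG_10139 had 20.7, 36.8 and 30.8 FPKM and was followed by a low pair. The first of this pair, SRUG_10140, had 2 counts in library 2, or 0.0492 FPKM, and 0 in libraries 1 and 3. The second, SRUG_10141, had 20, 2 and 17 counts and 0.378, 0.0408 and 0.355 FPKM. SRUG_10141 was lowest in library 2, at a count below the limit that a count of 0 allows. The core gene, SRUG_10135 and this pair thus alternated with well expressed models rather than forming 1 run. By their means the highest models of the stretch were SRUG_10143 with 200, 164 and 208 FPKM, SRUG_10136, and SRUG_10144 with 77.4, 213 and 94.2 FPKM. The order of SRUG_10143 and SRUG_10136 was not resolved, since SRUG_10136 was the higher in library 3. SRUG_10144 was the highest of the stretch in library 2, but SRUG_10129, with 88.4, 136 and 98.5 FPKM, exceeded it in libraries 1 and 3. Without library 2 their means were 85.8 (SRUG_10144) and 93.4 FPKM (SRUG_10129), so their order was not resolved either. The 20 neighbours had a median of 30.6 FPKM, and 12 of them exceeded the median over all models.

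SRUG_11196, model 132 of contig 16, had 0, 2 and 0 counts and 0, 0.0594 and 0 FPKM in the same order of libraries. Its 2 counts, taken as 1 fragment, have an exact Poisson 95% interval of 0.00150 to 0.331 FPKM, and the limit of 6 counts corresponds to 0.170 and 0.182 FPKM in libraries 1 and 3. Its mean was 0 when library 2 was left out. Its value in library 2 was thus within the limit that a count of 0 allows, and it was not distinguished from the silent models. SRUG_11195, just before it, had 52.3, 53.7 and 46.5 FPKM. Against the upper end of the core gene's 95% counting interval, this was 250-fold higher in library 1 and 207-fold higher in library 3. In library 2 the ratio was 904, with a counting interval of 162 to 35690. SRUG_11194 had 56.2, 43.1 and 45.5 FPKM and SRUG_11193 had 44.3, 31.4 and 35.8. These 3 models differed little between libraries.

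Levels were lower just after SRUG_11196. SRUG_11197 had 8.43, 11.1 and 11.3 FPKM. Against the same upper end, this was 40.3-fold higher in library 1 and 50.2-fold higher in library 3. SRUG_11198 had 1.02, 1.57 and 3.07 FPKM, with 58, 85 and 162 counts. It was 4.88-fold and 13.7-fold higher than that upper end in libraries 1 and 3. SRUG_11199 followed with 27.9, 28.3 and 30.8 FPKM. SRUG_11186, the first model of the stretch, was the sole member on contig 16 with 0 counts in every library, and it was the last of 5 consecutive silent models that began outside the stretch. The other 19 neighbours had mean FPKM values from 1.88 (SRUG_11198) to 97.4. By their means the highest were SRUG_11189 with 84.9, 87.1 and 120 FPKM, SRUG_11192 with 66.6, 61.5 and 70.6, and SRUG_11190 with 80.2, 48.8 and 60.5. SRUG_11192 and SRUG_11190 overlapped over the libraries. SRUG_11190 was among these through library 1, since SRUG_11188, with 53.8, 68.1 and 62.9 FPKM, and SRUG_11200, with 59.99, 56.8 and 63.01, exceeded it in libraries 2 and 3. Without library 1 the means were 54.7 FPKM for SRUG_11190, 65.5 for SRUG_11188 and 59.9 for SRUG_11200, and their order was not resolved. The median of the 20 neighbours was 37.0 FPKM, and 13 of the 20 exceeded the median over all models. By FPKM this median was above those around SRUG_09987 and SRUG_10137, while by TMM-normalized CPM, not corrected for gene length, the order of SRUG_10137 and SRUG_11196 turned and the medians were 1.69 times that of all gene models around SRUG_10137 and 1.26 times around SRUG_11196.

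**Figure D2:**
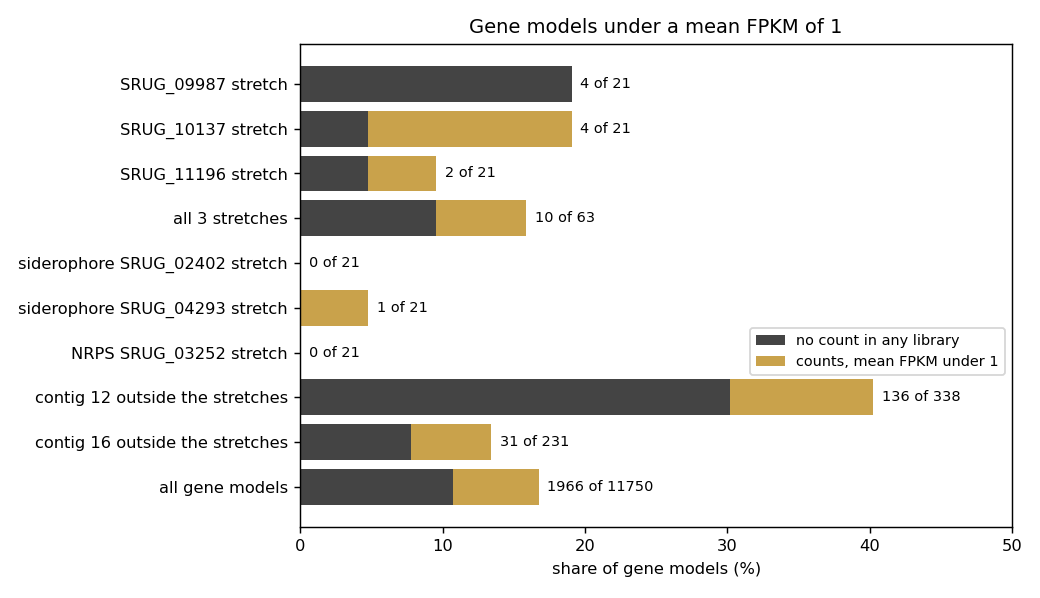
Bars give the share of gene models (%) with a mean FPKM under 1 in each stretch and comparison set, split into models without a count in any library (dark) and models with counts (light), with the number of low models beside each bar. The 3 indole stretches together hold 10 low models of 63, while the rest of contig 12 holds 136 of 338.

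Contig 12 carries 2 of the 3 core genes and was poor in transcripts as a whole, with no count for 107 of its 380 models (28.2%). Outside the stretches, 102 of 338 (30.2%) were silent, against 4 of 21 around SRUG_09987 and 1 of 21 around SRUG_10137. Both stretches thus held a lower share of silent models than the rest of their contig, a difference that was not tested. In windows of 21 consecutive models, the median number of silent models was 4 over the 360 windows of contig 12 and 0 over the 11338 windows of all contigs. At 4 silent models, the SRUG_09987 stretch was at the median of its contig, and 21.6% of the windows of all contigs held 4 or more. The windows overlap and are given as a description. On contig 16, 18 of the 231 other models (7.79%) were silent, and the median window held 1, as did the SRUG_11196 stretch.

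Silent runs of contig 12 lay close to the SRUG_10137 stretch but outside it. From SRUG_10152 to SRUG_10169, 18 consecutive models had no count in any library, the longest such run on contig 12; the longest of all contigs was 19. It began 15 models after the core gene, and the model before it, SRUG_10151, had a mean of 604 FPKM. Because of this run, the share of silent models around SRUG_10137 rose from 4.76% with 10 models on each side to 17.1% with 20 models on each side. Around SRUG_11196 it rose from 4.76% to 17.1% as well, with 4 further silent models before the stretch and 2 after it. Around SRUG_09987 it fell from 19.0% to 12.2%. Over the assembly, silent models tended to lie together. Of the 10 models on each side of a silent model, 37.2% were silent on average, against 7.42% around models with a count. On contig 12 alone these averages were 47.8% and 20.7%. Around SRUG_09987, on that contig and the one core gene without any count, 3 of 20 were silent.

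**Figure D3:**
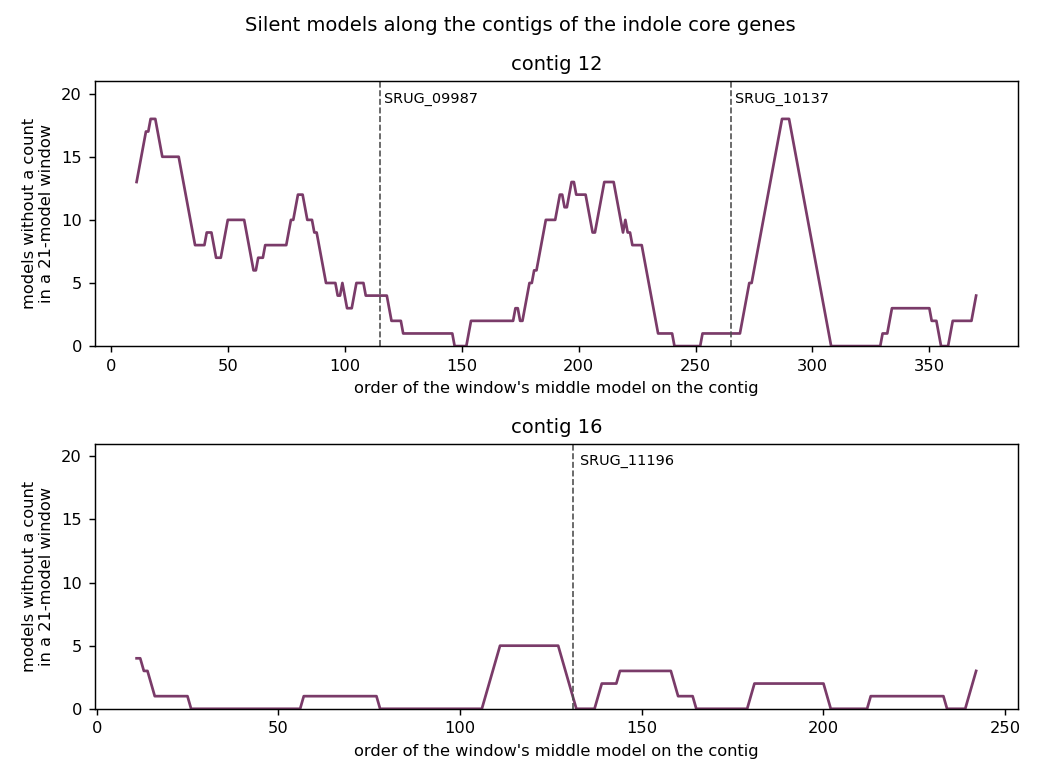
The number of models without a count in any library, in windows of 21 consecutive models, is plotted against the order of the middle model on contigs 12 and 16, with dashed lines at the core genes. SRUG_10137 stands at 1 silent model just before a peak of 18. SRUG_09987 stands at 4 silent models, on a plateau from SRUG_09981 to SRUG_09990. Before it, a series of peaks that begins near the start of contig 12 had fallen to 3 from SRUG_09973 to SRUG_09975. The number was 5 from SRUG_09977 to SRUG_09980.

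The core genes of 3 other secondary metabolite clusters of the paper, the siderophore genes SRUG_02402 and SRUG_04293 and SRUG_03252, treated here as the core gene of the nonribosomal peptide synthetase (NRPS) cluster, were taken with 10 models on each side in the same way. None of these 63 models was silent, and 1 had a mean FPKM under 1 (0.915, in the SRUG_04293 stretch). The medians of their 20 neighbours were 34.3, 41.3 and 54.1 FPKM, against 22.0, 30.6 and 37.0 around SRUG_09987, SRUG_10137 and SRUG_11196. The neighbourhoods thus overlapped in level, whereas the core genes did not: the lowest of the siderophore and NRPS cores in any library was at 3.30 FPKM (SRUG_02402, library 1) and the highest value of an indole core gene was 0.918. The paper had already reported little or no expression of the 3 indole core genes in mycelia. It also reported expression of all genes of the siderophore and NRPS clusters. The gap between the core genes was thus known when the sets were chosen, and no test was made of it. Among the genes that the paper compares with enzymes of psilocybin, another indole compound of fungi, SRUG_10179 (compared with the tryptophan decarboxylase PsiD) lies on contig 12, 42 models after SRUG_10137 and beyond the silent run. It had 14.6, 11.1 and 15.0 FPKM, above SRUG_10137 in every library. The genes SRUG_10672 and SRUG_02421, which the paper also names, are on other contigs and had at least 29.9 and 18.2 FPKM in each library. In the paper, the proteins of SRUG_10179, SRUG_10672 and SRUG_02421 grouped apart from the known psilocybin enzymes. It proposes that this species lacks the psilocybin cluster.

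The levels along the stretches were compared between libraries. Pearson's r of log2(FPKM + 1) over the 21 models ranged from 0.991 to 0.994 for the pairs of libraries around SRUG_09987, from 0.957 to 0.987 around SRUG_10137 and from 0.969 to 0.988 around SRUG_11196. Over all gene models it was 0.969 for libraries 1 and 2, 0.985 for libraries 1 and 3 and 0.973 for libraries 2 and 3. Around SRUG_10137 the values for libraries 1 and 2 (0.957) and for libraries 1 and 3 (0.980) were below those of all models. Spearman's rho around SRUG_10137 was below that of all models in the same pairs. Around SRUG_11196 rho was below in every pair (0.8867, 0.9636 and 0.9321, beside 0.9644, 0.9834 and 0.9676). Around SRUG_09987 it was below for libraries 1 and 3 only (0.9817). These are descriptions over models that share the libraries. Among the 53 members with a mean FPKM of at least 1, the median coefficient of variation was 23.2%, beside 19.97% for all 9784 such models, and it ranged from 0.767% (SRUG_11205, with 38.5, 38.0 and 38.5 FPKM) to 60.6% (SRUG_10146, with 4.17, 15.6 and 8.73 FPKM). The highest library exceeded the lowest by more than 2 times in 15 of the 53 (28.3%), beside 20.5% of all expressed models, with 5 members in each stretch. Library 2 was the highest for 22 of the 53 (41.5%, beside 43.3% of all expressed models). Of the 15, 12 were highest in library 2 and 13 were lowest in library 1, beside 54.2% and 55.2% of the 2001 expressed models of the assembly that differed by more than 2 times. SRUG_10144 is an example, given above, and SRUG_11201 is another, with 11.3, 31.6 and 13.9 FPKM. SRUG_10133 went the other way, with 32.0, 12.7 and 18.8 FPKM. No member with at least 50 counts in its highest library differed by more than 4 times, beside 3.63% of all gene models. By FPKM, library 1 was the lowest for 32 of the 53 (60.4%, beside 48.7% of all expressed models), and after normalization of the counts with TMM for 21 of the 53 (39.6%, beside 36.2%). For the core gene SRUG_10137, the libraries differed by less than the counting intervals given above.

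**Figure D4:**
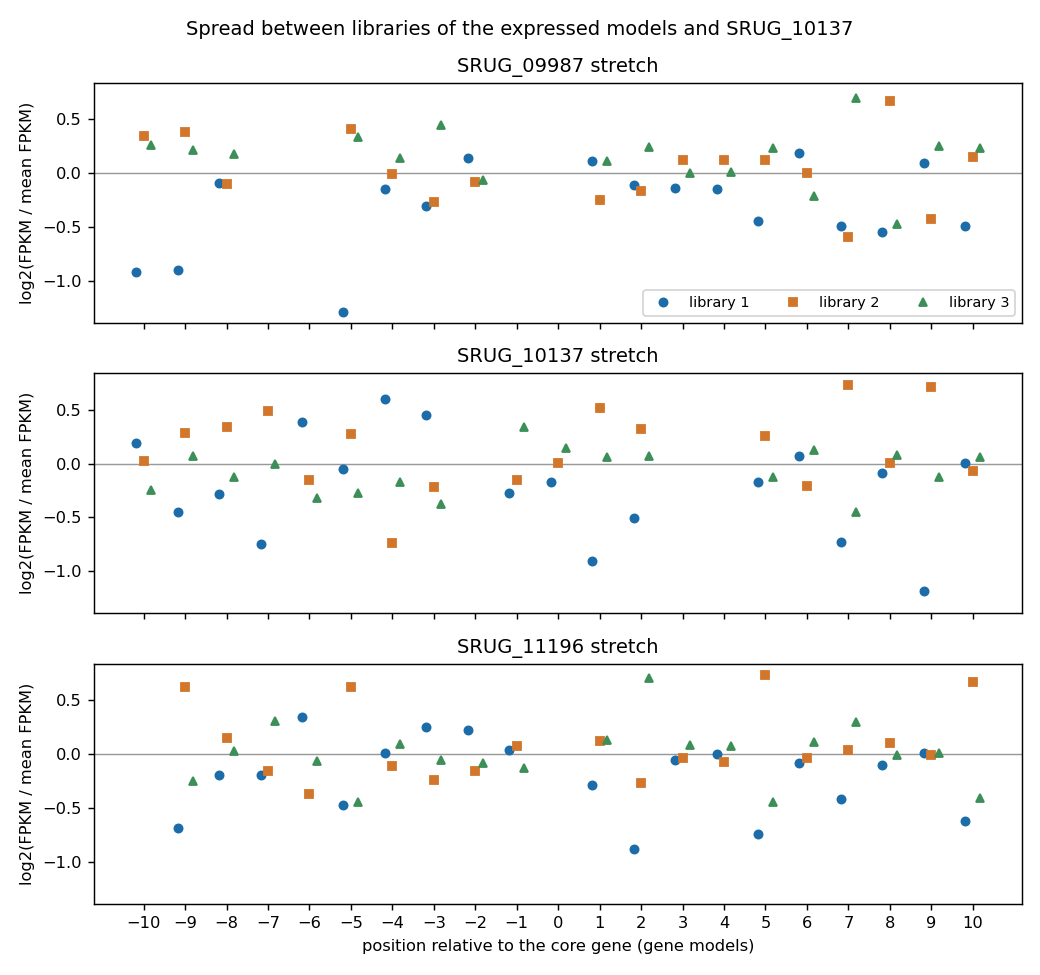
The log2 ratio of the FPKM in each library to the mean of the 3 libraries is plotted against position for members with a mean FPKM of at least 1 and for SRUG_10137. Most members lie within 1 log2 unit of their mean, and the largest drops, at SRUG_09982 and SRUG_10146, are in library 1.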

How the data were processed

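RNA-seq libraries of mycelia (n = 3, 1 condition) were analysed from 4 deposited tables of 11750 gene models. The counts that the authors deposited are whole numbers per gene model and per transcript without normalization, and the FPKM values were computed by the authors. The count tables differed from each other in 0 cells, as did the FPKM tables, and zeros of FPKM and of counts fell on the same cells. The submitters' processing notes name fastp, HISAT2 and StringTie without roles or versions; the use of strand and the total used for FPKM are not known from the sources at hand. Columns were matched to libraries by the bracketed label in each sample title, and the 3 libraries had 29678333 to 31831513 counts.

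A model was called silent at 0 counts in every library, low at a mean FPKM under 1 and expressed at 1 or more. Contig and order were taken from model and gene names; coordinates were not used. The members and lists were chosen with earlier results of these data known, so no enrichment or shuffling test was run. All 63 models could be named: the core genes, the 3 models on each side of each, the 3 highest and every silent model of a stretch, and members differing over 4 times between libraries at 50 counts or more. Models named outside this rule (those near the threshold, low models, those that differ between libraries and models outside the stretches) were chosen after their values were seen. TMM factors were computed in edgeR 4.0.16 and size factors in DESeq2 1.42.0 (R 4.3.3), and the other steps in Python 3.11.15 with pandas 2.3.3, NumPy 2.4.6, SciPy 1.17.1 and matplotlib 3.10.9. Both steps were tested on simulated data. Alternatives were other thresholds, widths, units and each library left out in turn.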

Additional observations from a re-analysis of the deposited data

How the results depend on the processing

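Depth limits the low end, since a count of 0 still allows a level of up to 6 counts. This limit takes 2 counts as 1 fragment, which was assumed. No paired analysis was possible because the libraries form a single group. The silent share over the 3 stretches was 9.52% and became 15.9% for models under a mean FPKM of 1 and 15.5% with 20 models on each side. Around SRUG_09987, 20 models on each side gave 12.2%. Around SRUG_10137 and around SRUG_11196, the silent share of 4.76% became 9.52% at 6 counts or fewer, with a 0 in at least 1 library or under a mean FPKM of 0.1, and 17.1% with 20 models on each side; under a mean FPKM of 1 it was 19.0% and 9.52%, and with 5 models on each side 9.09% and 0%. Leaving out libraries gave 9.52% to 12.7% over all stretches, 19.0% throughout around SRUG_09987 and 4.76% to 9.52% around each of the others, 9.52% being without library 2, since all counts of SRUG_10140 and SRUG_11196 are there. The expressed share moved by over 1.5 times only around SRUG_09987, from 81.0% to 52.4% at a mean FPKM of at least 5. With libraries left out it ranged from 76.2% to 81.0% there. Around SRUG_10137 the expressed share depended on the width. It was 81.0% with 10 models on each side, 63.6% with 5 and 63.4% with 20, beside 83.3% of all gene models.

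The median of the neighbours relative to that of all gene models was 0.922, 1.28 and 1.55 around SRUG_09987, SRUG_10137 and SRUG_11196. By TMM-normalized CPM, not corrected for length, it was 0.570, 1.69 and 1.26, which turned the order of SRUG_10137 and SRUG_11196; with 20 models on each side it was 1.03, 0.868 and 1.25, so that it crossed 1 around SRUG_09987 and SRUG_10137. With 5 models on each side it was 1.02, 1.11 and 1.39, thus above 1 around SRUG_09987 as well, and without silent models it was 1.09 and 1.28 around SRUG_10137 and SRUG_11196. With libraries left out it ranged from 0.880 to 0.989, from 1.27 to 1.34 and from 1.53 to 1.59. SRUG_10137 was at 3.48% of the median of all gene models by FPKM and at 3.04% by CPM with either TMM or DESeq2 size factors, and from 0.786 to 0.877 FPKM with libraries left out. It is in no low run at a threshold of 0.1 or 0.5 (run length 0). The number of models below it, 3 of 21, was 13 of 41 with 20 models on each side; for SRUG_11196 it was 1 of 21, 0 of 11 and 7 of 41, and 0 to 1 with libraries left out. The share of silent models around silent models, 37.2% on all contigs, was 13.4% on contig 16 alone, and around other models it was 7.42% on all contigs, 20.7% on contig 12 alone and 11.8% under a mean FPKM of 1. The other alternatives stayed within 1.5 times, or within the SD between libraries for levels.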

Other observations

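The position of SRUG_09987 beside highly expressed models was looked at over the whole assembly, after its values had been seen. Of the 1256 models without a count in any library, 5 (0.398%) lay next to a model with a mean FPKM of 1000 or more, as did 1.60% of all gene models. SRUG_09986 and SRUG_09987 were among these 5, each with a different high neighbour, and the others were SRUG_02519, SRUG_07060 and SRUG_08402. At a mean FPKM of at least 500 for the adjacent model there were 12 such models, and at 2000 or more there were 2. No test was made of this pattern, and whether reads of the silent models could be assigned to a neighbour was not tested.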
